A study of Mus musculus with 10 samples.

Results

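Broad H3K4me3 sites free of H3K27me3 were taken from the control H3K4me3 peak list. A site belonged to the set when its peak lay on chromosomes 1 to 19, was at least 3000 bp long and shared no base with a control H3K27me3 peak. The rule found 877 sites among 16714 control H3K4me3 peaks on those chromosomes and 17322 in all. Control peak length and control H3K27me3 therefore chose the sites, and both are given as description.

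The cells, neural progenitors that include stem cells, came from forebrains of E13.5 mouse embryos and were cultured with epidermal and fibroblast growth factor at 20 ng/ml each. For 24 h they received crotonate at 10 mM, which supplies crotonyl-CoA for histone crotonylation, or water (the control). Chromatin without crosslinking (native ChIP-seq) gave 8 peak lists, covering H3K4me3, H3K9cr, H3K27ac and H3K27me3 in crotonate and in control. Each mark had 1 library per treatment, so no difference between treatments has a replicate check, no test was made, and intervals cover counting error over sites only. Per the labels, the vendor of the H3K4me3 and H3K27me3 antibodies differed between treatments while the catalogue number was the same, so for these marks vendor and treatment cannot be told apart.

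H3K4me3 marks the starts of active and poised genes and is laid down by the SET1 and MLL methyltransferases. Most H3K4me3 peaks are narrow, and in many cell types the broadest ones have been found at genes that define the cell and at tumour suppressors. H3K27me3, made by Polycomb repressive complex 2, marks silenced developmental genes, and together with H3K4me3 it marks bivalent promoters. H3K27ac and H3K9cr, acetylation and crotonylation of histone H3 lysines, accompany active starts and enhancers, and the acetyltransferases p300 and CBP can write both.

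The broadest sites held microRNA genes, and their mature sequences show which product is shared between loci. All 3 mouse loci of miR-9, a microRNA of neural progenitors that acts in the timing of neurogenesis, lay inside sites of the set. Below are the mature forms with the seed, bases 2 to 8 from the 5′ end, in capitals, as RefSeq gives them for GRCm38.p6.

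miR-9-5p (Mir9-1, Mir9-2 and Mir9-3): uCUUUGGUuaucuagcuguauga
miR-9-3p (same 3 loci): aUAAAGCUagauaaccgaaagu
miR-125b-5p (Mir125b-1): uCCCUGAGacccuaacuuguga
let-7i-5p (Mirlet7i): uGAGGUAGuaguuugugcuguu
miR-92b-3p (Mir92b): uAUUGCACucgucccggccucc

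The seeds differ between these 5 mature forms, and the 3 miR-9 loci give the same 2 mature forms. In all, 18 of the 877 sites (2.05%, exact 95% interval 1.22 to 3.22%) held a microRNA hairpin, with 21 hairpin genes among them. Among the 11046 shorter control H3K4me3 peaks free of H3K27me3, 55 (0.498%) held a hairpin, and among the 292 broad peaks with H3K27me3, 0 did. Longer intervals hold more annotated features, and this was not adjusted for. Mir125b-1 lay in a site of 7457 bp in crotonate and 7264 bp in control at chr9:41579449-41586712. Mirlet7i lay in a site of 3360 bp in crotonate and 3106 bp in control, and Mir92b in one of 3799 bp in crotonate and 3891 bp in control. These 3 are widely expressed in the developing brain.

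Promoters of 4 protein-coding genes at the set are shown as the kind of sequence that the sites cover, 250 bases before to 50 after the annotated start (RefSeq, GRCm38.p6). The genes are Sox2, the transcription factor of neural stem cells, Cdkn1b, the cyclin-dependent kinase inhibitor p27, Dusp6, a phosphatase that turns off ERK kinases, and Fos, an immediate early transcription factor. Capitals mark matches, on either strand, to the TATA box TATAAA, the CCAAT box, the GC box GGGCGG or the ETS core CCGGAAG.

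Sox2, chr3:34649745-34650044, plus strand: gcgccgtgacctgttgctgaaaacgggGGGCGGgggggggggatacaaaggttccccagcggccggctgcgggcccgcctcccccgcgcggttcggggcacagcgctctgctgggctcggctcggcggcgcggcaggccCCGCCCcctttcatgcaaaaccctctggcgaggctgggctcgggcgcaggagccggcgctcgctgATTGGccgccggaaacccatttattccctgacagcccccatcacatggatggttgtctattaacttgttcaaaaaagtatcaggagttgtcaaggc
Cdkn1b, chr6:134920151-134920450, plus strand: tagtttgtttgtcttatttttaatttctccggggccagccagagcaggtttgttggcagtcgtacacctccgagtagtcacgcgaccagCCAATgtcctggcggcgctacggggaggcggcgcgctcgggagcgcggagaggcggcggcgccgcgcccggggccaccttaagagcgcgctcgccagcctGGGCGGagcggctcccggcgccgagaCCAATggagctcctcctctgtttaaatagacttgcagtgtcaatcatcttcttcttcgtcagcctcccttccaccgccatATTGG
Dusp6, chr10:99262981-99263280, plus strand: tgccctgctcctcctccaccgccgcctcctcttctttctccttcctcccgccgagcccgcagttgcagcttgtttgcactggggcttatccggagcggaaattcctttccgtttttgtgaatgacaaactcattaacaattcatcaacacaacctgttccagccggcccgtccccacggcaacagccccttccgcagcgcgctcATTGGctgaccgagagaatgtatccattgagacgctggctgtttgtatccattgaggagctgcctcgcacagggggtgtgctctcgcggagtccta
Fos, chr12:85473640-85473939, plus strand: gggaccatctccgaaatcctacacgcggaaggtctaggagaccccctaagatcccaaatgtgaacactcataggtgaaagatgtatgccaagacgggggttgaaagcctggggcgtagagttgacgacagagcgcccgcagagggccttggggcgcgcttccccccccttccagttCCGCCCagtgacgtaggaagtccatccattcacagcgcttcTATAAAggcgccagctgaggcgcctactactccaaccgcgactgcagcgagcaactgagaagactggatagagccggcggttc

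Each of these windows lay wholly inside its control H3K4me3 peak. Sox2 held 2 GC boxes (GGGCGG) and 1 CCAAT box, and Cdkn1b 1 GC box and 3 CCAAT boxes. Fos held 1 TATA box (TATAAA) and 1 GC box, and Dusp6 a single CCAAT box. GC content was 66.3% for Sox2, 62% for Cdkn1b, 57.3% for Dusp6 and 58.7% for Fos.

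The 877 sites made up 5.25% of the control H3K4me3 peaks on chromosomes 1 to 19 and 13.53% of their bases, 3.54 Mb in all. Their control length had a median of 3562 bp, with quartiles of 3219 and 4253 bp. Of them, 602 were under 4000 bp and 9 were 10000 bp or longer, so the set was mostly moderate in width with a thin tail of very long sites. At the limit, Paqr8 (3000 bp), Map7d1 (3001 bp) and Socs7 (3002 bp) lay just inside, and Pabpc1 (2997 bp), Lpar6 (2996 bp) and Thra (2994 bp) just outside. Crotonate widths at those 3 just inside were 3379, 3046 and 2967 bp, and at those just outside 3013, 3230 and 3860 bp. The authors' summit pileup, the height of stacked fragments, had a median of 734 in the control list at the set, 553 at shorter H3K27me3-free peaks and 529.5 at broad peaks with H3K27me3. By the authors' −log10 q they ranked at a median percentile of 77.7 in the control H3K4me3 list, against 60.6 for the shorter H3K27me3-free peaks, so the broad sites also tended to be tall.

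The labelled cell type could be checked against the lists. Of 10 neural stem and progenitor markers, 9 had an H3K4me3 peak within 1 kb of a start in crotonate and 9 in control. The exception, Msi1, had no start in the promoter table used here and no peak at its annotated ends. Sox2, Nes, Vim, Fabp7 and Hes5 lay at sites of the set. Among markers of other cell types, 5 of 5 of the oligodendrocyte lineage (Olig1, Olig2, Sox10, Pdgfra and Mbp) had H3K4me3 in both treatments, and 4 of these 5 also had control H3K27me3. Of 4 neuron markers 3 had H3K4me3 in both treatments (Tubb3, Dcx and Map2), and Olig1 and Map2 lay at sites of the set. For microglia 1 of 6 had H3K4me3 in either treatment (Spi1, 402 bp in crotonate and 417 bp in control). For endothelium and mural cells it was 1 of 5 in crotonate and 2 of 5 in control. The astrocyte markers Gfap, Aqp4 and S100b had none, while Aldh1l1 did.

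The longest site covered Mir9-2 and its host transcript C130071C03Rik at chr13:83713350-83741630. It was 28697 bp of H3K4me3 in crotonate and 28281 bp in control. H3K9cr spanned 29896 bp there in crotonate and 29989 bp in control, and H3K27ac 29899 bp in crotonate and 30690 bp in control. The 3 marks thus ended within about the same interval in both treatments, with H3K27me3 absent from both lists.

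The second site held Pou3f3, a POU transcription factor of the developing cortex, and its neighbour Pantr1, a long non-coding RNA. It had 30938 bp of H3K4me3 in 2 crotonate peaks, which also took in 2 further control peaks, and 22396 bp in 1 control peak. H3K27ac at that site was 36268 bp in 4 crotonate peaks and 37456 bp in 2 control peaks.

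Sox2 followed, with 19280 bp of H3K4me3 in crotonate and 18740 bp in control at chr3:34647970-34666709. Its H3K9cr measured 31606 bp in crotonate and 31666 bp in control, and its H3K27ac 31229 bp in crotonate and 34951 bp in control. Around Sox2 both of these marks reached over a neighbouring site of 6450 bp that contained Mir1897, so that acetylation and crotonylation ran on where the H3K4me3 call stopped. Meis2, a homeodomain transcription factor, followed with 18499 bp of H3K4me3 in crotonate and 18121 bp in control. H3K27ac at Meis2 was 20793 bp in crotonate and 22004 bp in control, and a control H3K27me3 peak of 270 bp lay nearby, outside the site.

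Mir9-1 and Mir9-3 took the fifth and sixth places. The Mir9-1 site measured 22684 bp in crotonate and 17217 bp in control, and the Mir9-3 site 20488 bp in crotonate and 15875 bp in control. At each, the crotonate peak took in a neighbouring control peak that was itself a site of the set, 377 bp away at Mir9-1 and 359 bp away at Mir9-3. The neighbour at Mir9-3, inside the host gene Mir9-3hg, had a control summit pileup of only 27. H3K27ac was 36357 bp in crotonate and 38436 bp in control at Mir9-1, and 25902 bp in crotonate and 33327 bp in control at Mir9-3.

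**Figure D1:**
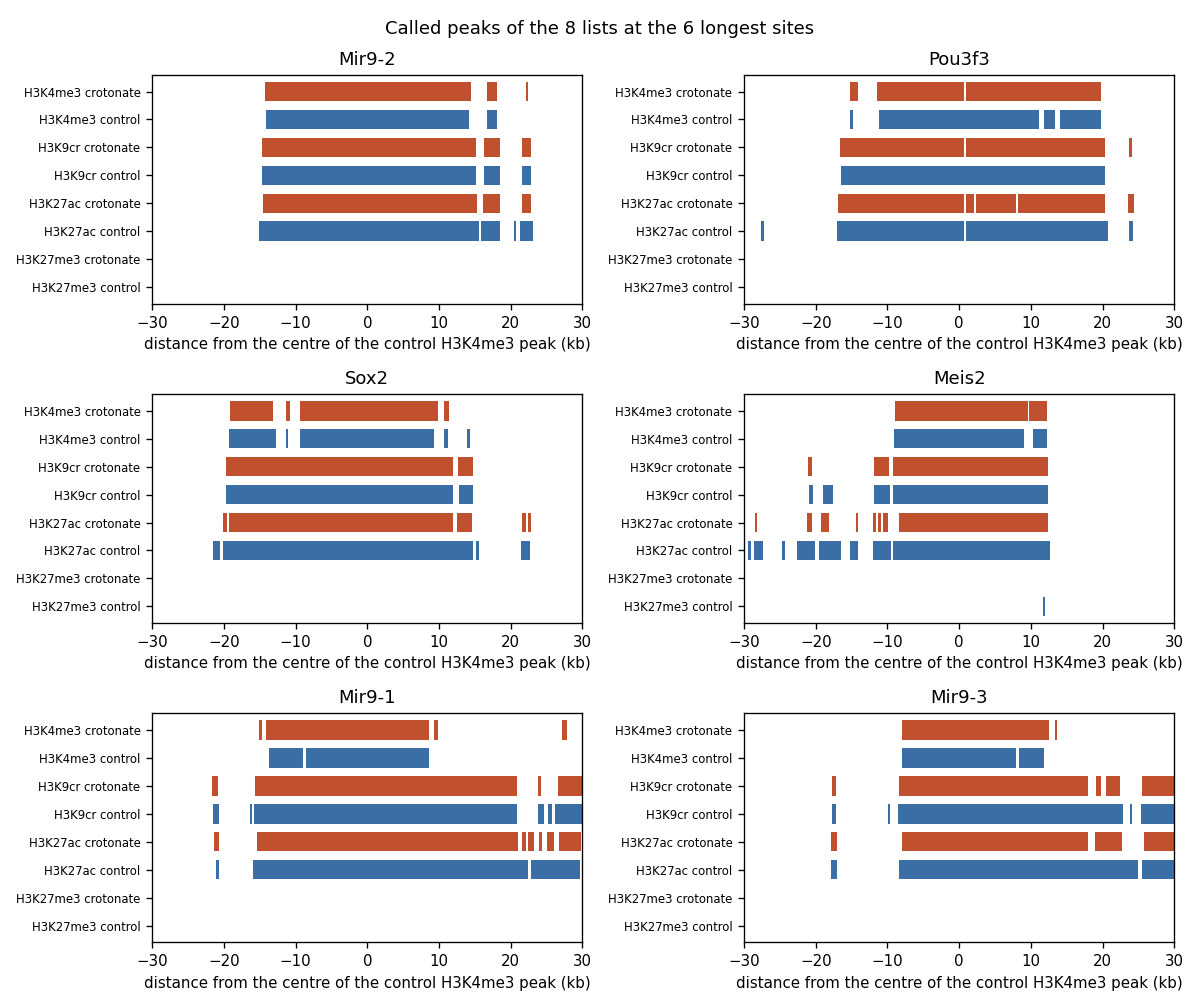
Called peaks at the 6 longest sites, with distance from the centre of the control H3K4me3 peak on the horizontal axis (kb, cut at 30 kb) and the 8 lists as rows, crotonate (orange-red) above control (blue). H3K4me3, H3K9cr and H3K27ac covered about the same interval in both treatments at most of these sites, with the crotonate H3K4me3 peaks running across control gaps at Pou3f3, Mir9-1 and Mir9-3, and H3K27me3 appears only as a 270 bp control peak near Meis2.

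At the other 6 of the 12 longest sites the summed H3K4me3 width was similar in crotonate and control. Nfib, a nuclear factor I protein of radial glia, had 14596 bp in crotonate and 14377 bp in control. Cdkn1b had 10411 bp in 3 crotonate peaks and 11148 bp in 1 control peak. Qk, an RNA-binding protein of glia, had 12669 bp in crotonate and 11054 bp in control. The widest difference among these 6 was at Qk, where the crotonate-to-control ratio was 1.15. Pou3f2, another POU factor, had 9656 bp in crotonate and 9501 bp in control. Irs2, an adaptor of insulin receptor signalling, had 9718 bp in crotonate and 9282 bp in control. Tubb2b, a beta tubulin, had 8315 bp in 2 crotonate peaks and 9091 bp in 1 control peak. H3K27ac was narrower in crotonate at all 6, with the widest gap at Pou3f2 (9666 bp in crotonate and 16128 bp in control) and at Nfib (14549 bp in crotonate and 20295 bp in control).

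Every one of the 877 sites carried a crotonate H3K4me3 peak (exact 95% interval 99.6 to 100%), while 2.81% of all control H3K4me3 peaks on chromosomes 1 to 19 had none. The crotonate width was the summed length of the crotonate peaks that touched a site. Its ratio to the control length had a median of 1.01, with quartiles of 0.984 and 1.05 and a range of 0.683 to 5.69. Among the 11046 shorter H3K27me3-free peaks, the 10639 with a crotonate peak had a median ratio of 1.02 with quartiles of 0.976 and 1.08. None of the sites was at least 1.5-fold narrower in crotonate, against 3.86% of all control peaks (those without a crotonate peak included). At least 1.5-fold wider were 9 sites (1.03%, interval 0.47 to 1.94%), against 5.5% of all control peaks. The 292 broad peaks with H3K27me3 were close to the set in these measures. All 292 had a crotonate peak, and their median ratio was 1.02. At least 1.5-fold narrower were 0.342% of them and at least 1.5-fold wider 1.37%. The stable width was thus not particular to broad sites free of H3K27me3.

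All 9 of those were sites where a crotonate peak ran across a gap and took in another control peak. Such joining occurred at 26 sites (2.96%), against 1.06% of shorter H3K27me3-free peaks, 4.45% of broad peaks with H3K27me3 and 1.71% of all control peaks. At the other end 18 sites (2.05%) were split over more than 1 crotonate peak. That held for 0.389% of the shorter peaks and 2.4% of the broad peaks with H3K27me3. Where 1 crotonate peak met the site and no other control peak, which held for 834 sites, ratios lay between 0.683 and 1.37. Of those 834, 515 (61.8%) were wider in crotonate by any amount, and of all control peaks matched the same way 67% were. Their edges lay a median of 12 bp further out in crotonate, 79.6% of edges were within 150 bp, and the summit was displaced by a median of 19 bp. At shorter H3K27me3-free peaks the edge shift had a median of 8 bp with 89.4% of edges within 150 bp, and over all control peaks 15 bp with 85.8%. At broad peaks with H3K27me3 the shift had a median of 26 bp with 74.5% of edges within 150 bp. In absolute distance the edges of broad peaks, with or without H3K27me3, thus moved more often than those of shorter peaks. The ratio of widths stayed near 1.

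**Figure D2:**
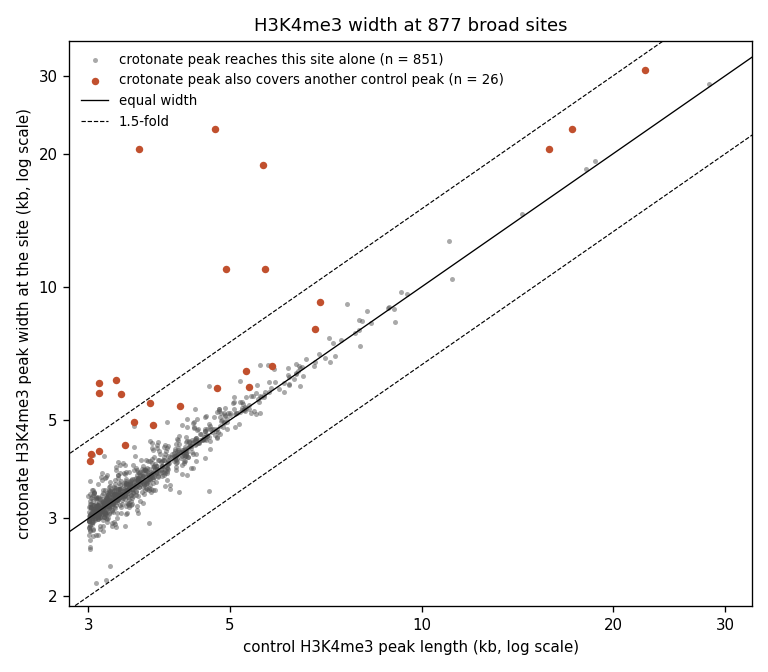
H3K4me3 width at each of the 877 sites in crotonate (vertical) against the control peak length (horizontal), both in kb on log scales; each point is a site and the dashed lines are 1.5-fold either way. The 851 grey sites follow the line of equal width, and all 9 sites above the upper dashed line are among the 26 orange-red sites whose crotonate peak covers another control peak.

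The highest ratios were at the second Mir9-3hg peak (5.69), at a site inside AW047730 beside Mir9-1 (4.78), at the non-coding gene Pantr2 (3.34), at 2 neighbouring sites of Tnrc18 (2.23 and 1.94) and at Dusp1 (1.95). Each ratio sets a whole joined crotonate peak against only 1 of the control peaks in it, and the 2 Tnrc18 sites share 1 crotonate peak. Within 30 kb of the site centre, all H3K4me3 peaks covered 20822 bp in crotonate and 19473 bp in control at Mir9-3. At Mir9-1 they covered 24437 bp in crotonate and 21961 bp in control. Dusp1, a phosphatase that turns off MAP kinases, had 6070 bp in crotonate and 3118 bp in control. Cdkn1a, which encodes the cell cycle inhibitor p21, also joined a neighbour, with 5731 bp in crotonate and 3369 bp in control, and was named after its values were seen. At Dusp1 H3K27ac already spanned the wider interval in control, with 7968 bp in crotonate and 8154 bp in control. At Cdkn1a it measured 6216 bp in crotonate and 3512 bp in control. That width counts only H3K27ac peaks that touch the site, so any separate control peak nearby is left out. H3K9cr at Cdkn1a measured 6454 bp in crotonate and 6200 bp in control.

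The lowest ratios were at a site inside Trio (0.683), at Mfng (0.694), Rbm15b (0.723), a site inside Adgrg1 (0.746), Arl4a (0.787) and Ppp1r12c (0.826). Mfng, the Manic fringe glycosyltransferase that modifies Notch, had 2140 bp in 2 crotonate peaks and 3085 bp in 1 control peak, with a summit pileup of 88 in the crotonate list and 111 in the control list. The site inside Trio, a guanine nucleotide exchange factor, had 2183 bp in crotonate and 3196 bp in control. Its H3K9cr was 3518 bp in crotonate and 8876 bp in control, the clearest case among these 6 in which another mark was also narrower.

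In 825 sites (94.1%, interval 92.3 to 95.5%) at least 1 crotonate peak was 3000 bp or longer. In the other 52 (5.93%) none was, against 6.16% of all 1169 control peaks of that length. By summed width 47 sites stayed under 3000 bp, and their control lengths had a median of 3055 bp and reached 3730 bp, so these were sites near the limit. Read from the crotonate list, 1088 peaks of at least 3000 bp were free of crotonate H3K27me3. Of these, 819 (75.3%) touched a site of the set, 111 (10.2%) touched only a broad control peak with H3K27me3, and 158 (14.5%) touched only shorter control peaks. Those 158 measured a median of 3123 bp in crotonate and 2851 bp in control, and 7 of them were at least 1.5-fold wider. They were chosen as at least 3000 bp in crotonate over control peaks under 3000 bp, so the larger crotonate median follows largely from that choice. The widest ratio was at Neat1, the non-coding RNA of paraspeckles, with 3385 bp in crotonate and 1006 bp in control; Neat1 was picked here after its values were seen.

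H3K9cr covered the sites almost completely. All 877 were touched by an H3K9cr peak in crotonate and all 877 in control, and 0 lost it, against 0.48% of control H3K4me3 peaks with H3K9cr. Of all control H3K4me3 peaks, 99% were touched by H3K9cr in crotonate and 98.5% in control. The median covered share of a site's length was 100% in crotonate and 100% in control, as it was over all control H3K4me3 peaks. Near-complete H3K9cr was thus not particular to the set. H3K9cr covered 702 sites (80%) from end to end in crotonate and 734 (83.7%) in control, against 63.3% and 69.2% of all control H3K4me3 peaks. The width of the H3K9cr peaks had a median of 4207 bp in crotonate and 4194 bp in control, so that it exceeded the control H3K4me3 length at 819 sites in crotonate and 839 in control. At least 1.5-fold lower coverage was seen at 0 sites, against 1.06% of control H3K4me3 peaks with H3K9cr, and at least 1.5-fold higher coverage also at 0, against 0.401%. By any amount, coverage was lower in crotonate at 140 sites (16%), against 27.2% of all, and higher at 100 (11.4%), against 16.8% of all. The strongest H3K9cr peak of a site ranked at a median percentile of 90.3 in the crotonate list and 91.7 in the control list.

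H3K27ac also reached every site in both lists but covered less of it in crotonate. It touched 87.5% of all control H3K4me3 peaks in crotonate and 88.2% in control. No site lost H3K27ac, against 3.26% of control H3K4me3 peaks with H3K27ac. The median covered share was 93.8% in crotonate and 100% in control. End-to-end coverage held at 221 sites (25.2%) in crotonate and 458 (52.2%) in control, and 220 sites (25.1%) in crotonate and 124 (14.1%) in control were covered by more than 1 peak. Coverage was lower in crotonate at 591 sites (67.4%), against 64.3% of all control H3K4me3 peaks with H3K27ac, and higher at 84 (9.58%), against 14.3%. The direction at the set was thus close to that of the whole list. At least 1.5-fold lower coverage was found at 7 sites (0.798%), against 8.87% of all, and at least 1.5-fold higher coverage at 0, against 1.06%.

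The narrower H3K27ac calls were not limited to these sites. Shorter H3K27me3-free peaks had a median coverage of 90.9% in crotonate and 99.7% in control, and broad peaks with H3K27me3 83.6% in crotonate and 91.7% in control. The crotonate H3K27ac list held 59868 peaks with a median length of 625 bp, and the control list 52922 with a median of 881 bp. The lowest local background implied by the pileup and fold values of a list, taken here as a stand-in for depth, was 2.68 in the crotonate H3K27ac list and 3.11 in the control one, and 3.2 and 3.74 in the H3K9cr lists in crotonate and control. This stand-in was lower where H3K27ac covered less, and its part in the result was not tested.

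**Figure D3:**
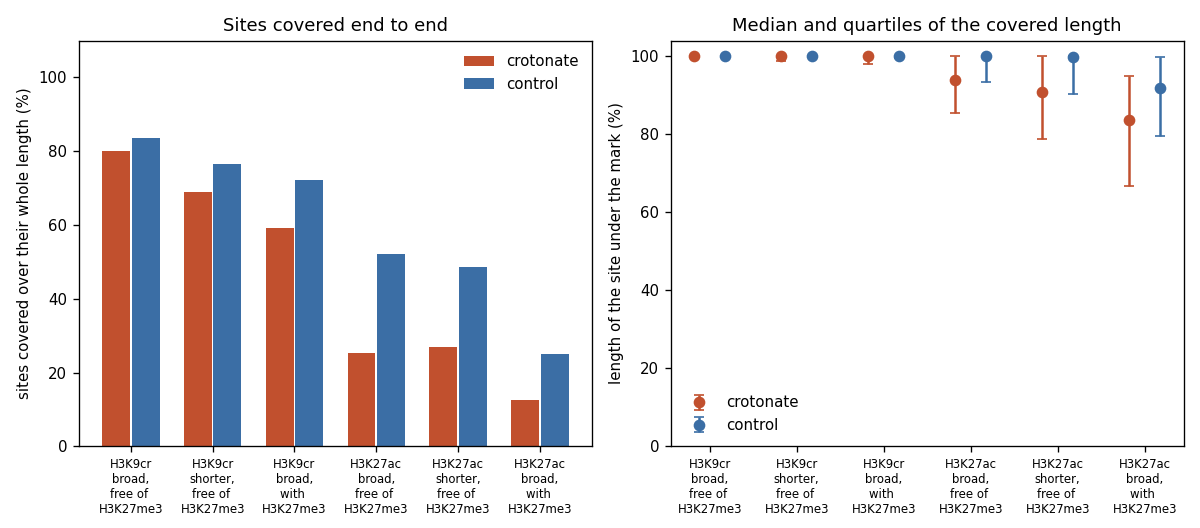
H3K9cr and H3K27ac at broad H3K27me3-free sites, shorter H3K27me3-free sites and broad sites with H3K27me3, crotonate (orange-red) left of control (blue). The left panel gives the percentage of sites covered over their whole length, and the right panel the median (point) and quartiles (bars) of the covered percentage of each site's length; H3K27ac covered 25.2% of the broad H3K27me3-free sites end to end in crotonate and 52.2% in control.

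The largest differences in H3K27ac coverage were at St8sia4, a polysialyltransferase of neural cell adhesion molecule, with 18.9% in crotonate and 71.7% in control. Arhgef26 had 48.4% in crotonate and 87.2% in control, and Adgrb3, an adhesion receptor of neurons, had 62.5% in crotonate and 100% in control. H3K9cr covered at least 98.5% of those 3 sites in crotonate. At Mkrn3, next in order, H3K27ac covered 63% in crotonate and 99.9% in control, and H3K9cr was lower too, with 85.1% in crotonate and 100% in control. In the other direction Wee1, the kinase that restrains entry into mitosis, had 100% in crotonate and 82.1% in control, and Ubb, a polyubiquitin gene, had 85.3% in crotonate and 73.1% in control. These 6 were picked after their values were seen.

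H3K27ac coverage was higher at longer sites. In the 602 sites under 4000 bp the median H3K27ac coverage was 92.8% in crotonate and 100% in control, and in the 29 sites of 7000 bp or more it was 99.3% in crotonate and 100% in control. End-to-end H3K27ac held at 23.6% of the sites under 4000 bp in crotonate and 50% in control, and at 44.8% of the 29 longest in crotonate and 79.3% in control. End-to-end H3K9cr did not follow length, with 79.4% in crotonate and 84.2% in control at sites under 4000 bp, and 75.9% in crotonate and 93.1% in control at the 29 longest. The width ratio of H3K4me3 barely differed between these groups, with medians of 1.01 and 1.02.

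H3K27me3 appeared at 2 sites in crotonate (0.228%, interval 0.0276 to 0.821%), against 0.587% of all control H3K4me3 peaks without it. At Rdh10 and Rpl7 a crotonate H3K27me3 peak of 321 bp with 6.71-fold enrichment lay wholly inside the site. Rdh10 makes retinal for retinoic acid and Rpl7 encodes a ribosomal protein that has processed pseudogene copies, so reads there may be shared with other loci. At Gdf11, a growth factor of the TGF-beta family, a crotonate peak of 618 bp with 3.82-fold enrichment shared 169 bp with the site. Neither peak covered 50% of its site. The nearest H3K27me3 peak lay a median of 81.4 kb away in crotonate and 83.4 kb in control. For shorter H3K27me3-free peaks it was 35.9 kb in crotonate and 41.4 kb in control. Of the 292 broad peaks with control H3K27me3, 171 (58.6%) had it in crotonate.

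Nearly all sites lay at annotated genes. A gene start (or, for genes without a listed start, an annotated end) lay inside 811 sites (92.5%, interval 90.5 to 94.1%) and within 1 kb of 829 (94.5%). Inside shorter H3K27me3-free peaks it was 72.8%, over intervals of less length. Counting listed starts alone, 684 sites (78%) held at least 1, against 60.7% of the shorter peaks and 71.6% of broad peaks with H3K27me3. The sites met 1243 genes, of which 941 were protein-coding, that is 4.55% of the protein-coding genes on chromosomes 1 to 19, and broad peaks with H3K27me3 met 1.32% of them. Starts on both strands were present in 202 sites (23%), against 11% of shorter H3K27me3-free peaks and 16.4% of broad peaks with H3K27me3. At least 2 protein-coding starts were inside 112 sites (12.8%), against 5.88% of the shorter and 1.71% of the broad peaks with H3K27me3. The protein-coding genes had a median length of 34.3 kb, against 22.9 kb at shorter H3K27me3-free peaks and 39.4 kb at broad peaks with H3K27me3.

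For 48 sites no start, and no annotated end counted in its place, was within 1 kb, and 41 of these lay inside an annotated gene. The longest were inside Zbtb20, a zinc finger repressor, with 6462 bp in crotonate and 6396 bp in control, and inside Tcf4, a helix-loop-helix factor, with 6188 bp in crotonate and 6299 bp in control. Zbtb20 and Tcf4 were chosen by length after the values were seen. Whether alternative starts lie there was not analysed here.

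The sites extended mainly into the gene. Among the 343 sites whose bases held 1 listed start and no other start or annotated end counted as a gene, the control peak reached a median of 2647 bp downstream of the start and 931 bp upstream. The longer side was downstream in 326 of them (95%, interval 92.2 to 97.1%). In 4544 shorter H3K27me3-free peaks it reached 1011 bp downstream and 514 bp upstream, with the longer side downstream in 90.8%. At 2000 bp downstream, H3K4me3 was called at 86.6% of the 343 sites in crotonate and 87.2% in control, H3K9cr at 94.2% in crotonate and 92.1% in control, and H3K27ac at 71.4% in crotonate and 85.1% in control. The gap between treatments in H3K27ac was smaller nearer the start, with 96.8% in crotonate and 98.5% in control at 1000 bp downstream, and 90.4% in crotonate and 94.5% in control at the start itself. Upstream, at 1000 bp, H3K27ac was called at 61.8% in crotonate and 70.3% in control.

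**Figure D4:**
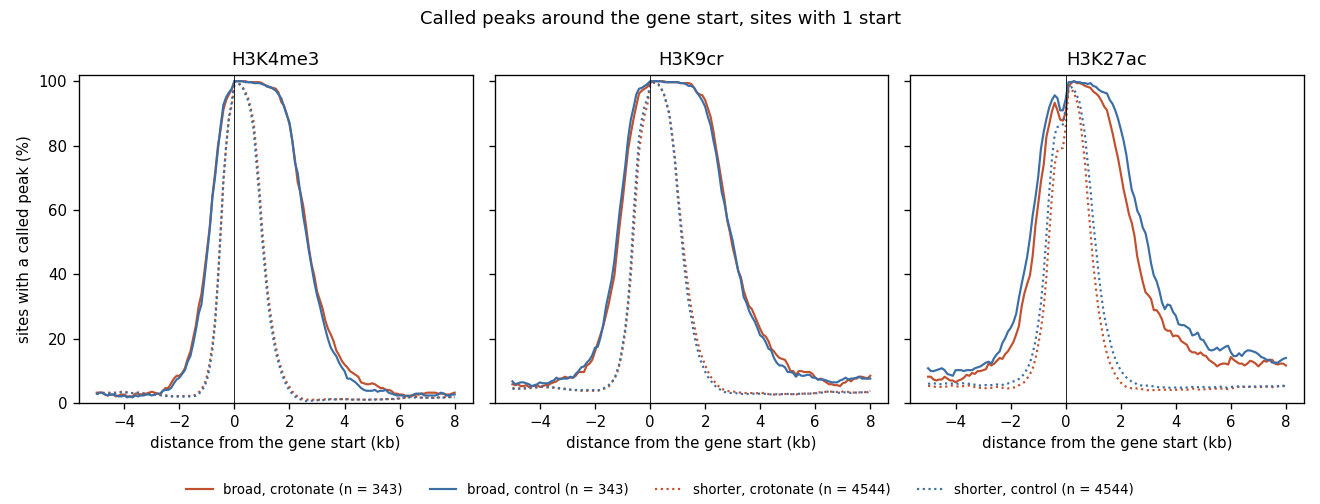
Percentage of sites with a called peak at each distance from the gene start (kb, positive into the gene) for H3K4me3, H3K9cr and H3K27ac; solid lines are 343 broad H3K27me3-free sites, dotted lines 4544 shorter ones, orange-red crotonate and blue control. The H3K4me3 and H3K9cr lines of the 2 treatments lie together, and the crotonate H3K27ac line lies inside the control one, with 71.4% in crotonate and 85.1% in control at 2 kb into broad sites.

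Promoter windows inside the sites were rich in CpG. The 1118 windows of 300 bases inside sites, from 908 genes, had a median GC content of 65.3% and a median ratio of observed to expected CpG of 0.834. Windows in shorter H3K27me3-free peaks had 61.7% and 0.805, those in broad peaks with H3K27me3 64.3% and 0.767, and all 31396 windows of the table on chromosomes 1 to 19 had 53% and 0.389. Of the motifs, CCGGAAG, the core that ETS factors bind, was in 11.1% of the windows at the sites, 22.6% at shorter H3K27me3-free peaks, 4.62% at broad peaks with H3K27me3 and 9% of all windows. The palindromic NRF1 motif was in 1.25% at the sites, 2.76% at shorter peaks and 0.968% of all. The other motifs differed less from the shorter peaks as a ratio of shares, with TATAAA in 7.6% at the sites and 5.4% at shorter peaks, CCAAT in 41.2% and 38.8%, and GGGCGG in 71.5% and 67.5%. Across all windows these 3 were in 13.6%, 37.3% and 36%.

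Genes of 22 lists were looked up at the sites. Of 704 listed genes on chromosomes 1 to 19, 135 lay at a site, set beside 4.55% of all protein-coding genes. The lists were chosen with results of these data known, so their shares are a description. The Egf and Fgf signalling and feedback list had 23 of 49 genes at a site (46.9%), and a further 8 at broad peaks with H3K27me3. Its longest were Etv1, an ETS factor downstream of ERK (7359 bp in crotonate and 8014 bp in control), the receptor tyrosine kinase inhibitors Spry2 (8417 bp in crotonate and 7992 bp in control) and Spry4 (9165 bp in crotonate and 7633 bp in control), and Dusp6 (8045 bp in crotonate and 6807 bp in control). The Dusp6 peak in crotonate also covered another control peak. Over the 23 sites the median width ratio was 1.02, against 1.01 over all 877.

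Neural stem and progenitor factors were divided between broad sites without and with H3K27me3. Of 66 genes, 16 (24.2%) lay at a site of the set, 31 at a broad peak with H3K27me3 and 2 at a shorter H3K27me3-free peak. The first 4 by length were Pou3f3, Sox2, Meis2 and Nfib, described above. Over the 16 sites the median width ratio was 1.03, and H3K27ac coverage was lower in crotonate at 8, equal at 8 and higher at 0. Among smaller sites of this list, Vim, an intermediate filament of progenitors, had 5665 bp in crotonate and 5585 bp in control, Hes5, a Notch target that holds back neurogenesis, 5164 bp in crotonate and 5091 bp in control, and Nes, the filament nestin, 4787 bp in crotonate and 4779 bp in control. Vim, Hes5 and Nes are also cell type markers and were picked as such. Of 37 neuronal differentiation genes, 1 lay at a site (2.7%, interval 0.0684 to 14.2%), against 4.55% of all protein-coding genes. It was Map2, with 3158 bp in crotonate and 3122 bp in control, and 7 of the 37 lay at broad peaks with H3K27me3. The astrocyte list had 5 of 19, namely Nfib, Sox9, Nfia, Slc1a3 and Aldh1l1. Sox9 and Nfia, gliogenic factors that progenitors also express, had 6619 and 4786 bp in crotonate and 6418 and 4602 bp in control. The oligodendrocyte list had 2 of 19, Sox8 (6620 bp in crotonate and 5823 bp in control, with a neighbour joined) and Olig1 (3702 bp in crotonate and 3561 bp in control).

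Genes that restrain growth included some of the longest sites. Of 27 genes of cell cycle arrest and growth control, 10 (37%) lay at one, led by Cdkn1b. Others were Foxo3, a forkhead factor (5429 bp in crotonate and 5246 bp in control), and Btg1, an antiproliferative factor (6137 bp in crotonate and 5187 bp in control). Over the 10 sites H3K27ac coverage had a median of 98.3% in crotonate and 100% in control, and was lower in crotonate at 6 and equal at 4. Of 38 cell cycle and DNA replication genes, 5 lay at a site (13.2%, interval 4.41 to 28.1%, against 4.55% of all protein-coding genes) and 30 at shorter H3K27me3-free peaks. Over all protein-coding genes, 941 lay at a site and 8706 at a shorter H3K27me3-free peak, so shorter peaks were the commoner case there too. The 5 were Rrm2, Mcm7, Plk1, Pcna and E2f3, all between 3018 and 3284 bp in control and so near the length limit. Pcna, the sliding clamp of replication, had 2831 bp in crotonate and 3055 bp in control. H3K27ac coverage was lower in crotonate at 2 of the 5 sites (Pcna and E2f3), higher at 2 (Mcm7 and Plk1) and equal at 1 (Rrm2).

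Of 59 replication-dependent histone genes, 24 (40.7%) lay at 9 sites, since the clustered genes share peaks. The longest, at chr13:23570206-23577111, held H2ac7, H2ac8, H2bc7, H2bc8 and H3c4 and measured 7048 bp in crotonate and 6906 bp in control. Histone gene copies are near-identical and the handling of reads with several matches is not given in the sources used here, so values at these sites are uncertain. The housekeeping list had 13 of 29 (44.8%), led by Hnrnpa2b1, Actg1, Ubb and Tuba1a, with 16 at shorter peaks and 0 at broad peaks with H3K27me3. Several of these, such as Actg1, have processed copies and carry the same uncertainty. Ribosomal protein genes had 2 of 54 at a site (Rpl7 and Rpl41).

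Genes for chromatin proteins had 15 of 52 (28.8%). The longest were Setd1b, an H3K4 methyltransferase of the SET1 family (6558 bp in crotonate and 6164 bp in control), Arid1a of the BAF remodeller (5085 bp in crotonate and 4719 bp in control), Kmt2a, the MLL1 methyltransferase (4605 bp in crotonate and 4613 bp in control), and Arid1b, another BAF subunit (4109 bp in crotonate and 4578 bp in control). H3K27ac coverage was lower in crotonate at 12 of these 15 sites and higher at 0, beside 67.4% lower and 9.58% higher over all 877. Writers, readers and erasers of crotonylation had 5 of 33 at a site, namely the BAF subunit Dpf3 and the acetyltransferases Ep300, Kat6b, Crebbp and Kat6a. All 5 of these had lower H3K27ac coverage in crotonate, with a median of 89.2% in crotonate and 97.6% in control, beside 67.4% of all 877 sites with lower coverage, while their H3K4me3 width ratios were between 0.94 and 1.04. Ep300, Kat6b, Crebbp and Kat6a are also among the 15 chromatin genes above, so their sites are counted in both lists.

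The Bmp and Tgfb list had 7 of 33, among them the receptors Bmpr2 (5030 bp in crotonate and 4944 bp in control) and Bmpr1a (3787 bp in crotonate and 3647 bp in control), and Smad3, the signal transducer (4903 bp in crotonate and 4632 bp in control). Tgif2, a corepressor of this pathway, had 3671 bp in crotonate and 3593 bp in control. H3K27ac coverage was lower in crotonate at 6 of the 7 sites (67.4% over all 877), with a median of 86.8% in crotonate and 91.8% in control. The Notch list had 6 of 33, led by the coactivator Maml2 (6692 bp in crotonate and 6346 bp in control), the target genes Hes5 and Hey1, and the DNA-binding factor Rbpj (3936 bp in crotonate and 3953 bp in control). The Wnt and Shh list had 1 of 36, Axin2, a feedback inhibitor of Wnt, and 9 at broad peaks with H3K27me3. The integrated stress response list had 2 of 17, Nfe2l2 and Atf5. Among long non-coding RNAs 8 of 32 lay at sites, with Malat1, a nuclear RNA, at 8822 bp in crotonate and 8207 bp in control next in length after Pantr1 and Mir9-3hg.

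Lists of other lineages had no gene at a site. The counts were 0 of 17 for pluripotency and germ line, 0 of 22 for mesoderm and endoderm, 0 of 39 for Hox genes, 0 of 12 for microglia and macrophages and 0 of 14 for endothelium, pericytes and fibroblasts. In that order, the exact intervals reached up to 19.5, 15.4, 9.03, 26.5 and 23.2%. Each interval included the 4.55% of all protein-coding genes, so these short lists do not show a share below that of genes in general. Klf4, Prdm1 and Foxc1 of these lists lay at broad peaks with H3K27me3.

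**Figure D5:**
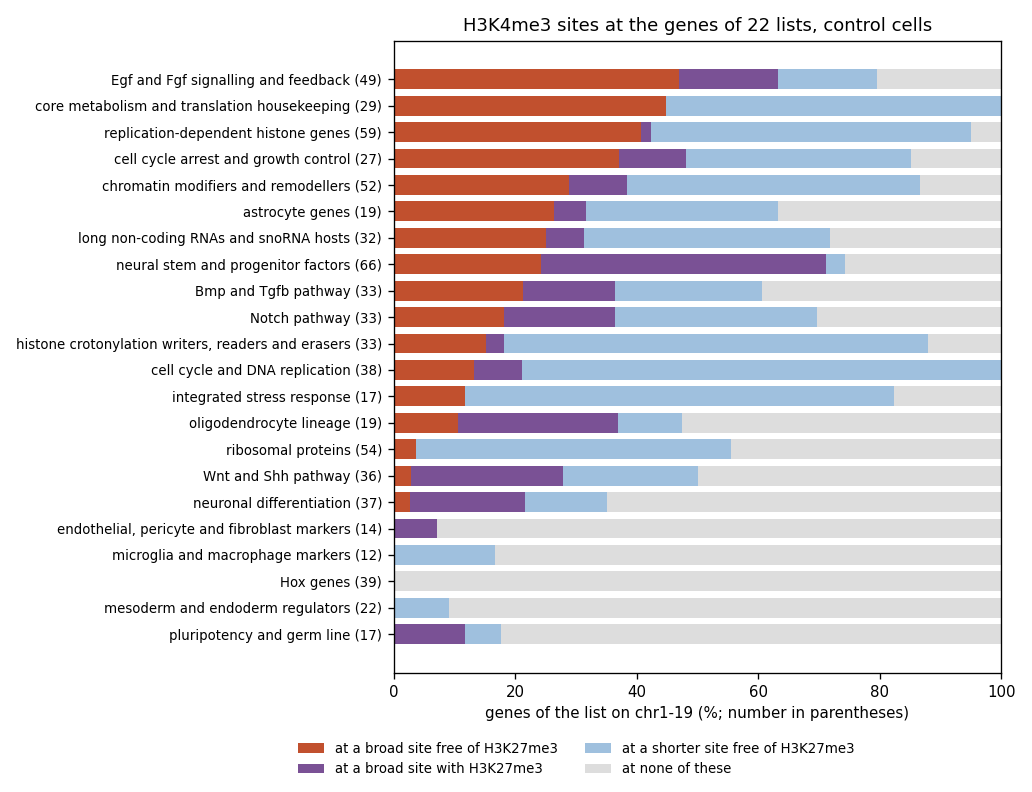
Percentage of the genes of each of 22 lists (number on chromosomes 1 to 19 in parentheses) that lay within 1 kb of a broad H3K27me3-free site (orange-red), otherwise of a broad site with H3K27me3 (purple), otherwise of a shorter H3K27me3-free site (light blue), or of none of these (grey), in control. The Egf and Fgf list has the highest share at broad H3K27me3-free sites, 46.9%, and neural stem and progenitor factors have 24.2% there and 31 of 66 genes at broad sites with H3K27me3.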

How the data were processed

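The members and gene lists were chosen with earlier results of these data known. ChIP-seq of 4 marks in crotonate and control gave 8 peak lists, 1 library each, and for the 2 inputs no file was used here. The submitters' processing notes name Bowtie2 2.4.1, MACS2 2.2.7.1 and GRCm38. Neither the calling settings nor the handling of reads with several matches is given in the labels or headers. For each peak the authors deposited a pileup, which is a coverage signal, a fold enrichment, which is a ratio over local background, and, per the file headers, a −log10 of the p-value and another of the q-value. All were set by the authors and served here to rank or describe peaks inside their list, and the lists reach down to a q-value of about 0.05. Read totals are not given, so depth is unknown beyond the implied background in the text.

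Overlap meant at least 1 shared bp. A gene was at a site when its start lay within 1 kb (RefSeq, GRCm38.p6; 16457 of 20665 protein-coding genes on chromosomes 1 to 19 had a listed start, for others either annotated end was taken). Named genes are those at the 12 longest sites, at the 6 lowest and 6 highest width ratios, at sites without H3K9cr or H3K27ac (there were 0) or with crotonate H3K27me3, up to 4 per list at the longest sites, and 3 either side of the length limit; 1 gene that this rule names is not reported here. Other names, among them microRNA genes, cell type markers and further genes of short lists, were chosen after their values were seen. Shares carry exact Clopper-Pearson 95% intervals. No molecular identifiers mark the reads, and the intervals cover counting error over sites only. Overlap functions were tested on simulated data. Python 3.11.15, pandas 2.3.3, numpy 2.4.6 and scipy 1.17.1 were used.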

Additional observations from a re-analysis of the deposited data

How the results depend on the processing

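No paired analysis was possible because each mark and treatment had 1 library. Of 97 values under other settings, 85 stayed within 1.5 times (counts) or within the 95% interval (shares and medians) of the reported value. The number of sites was 1684 with a limit of 2500 bp, 275 with 4000 bp and 105 with 5000 bp. The share of sites reaching 3000 bp in crotonate was 54.9% with a limit of 2500 bp, which lets in sites that begin under 3000 bp, and 100% with 4000 bp. Median crotonate H3K27ac coverage was 92.6% with 2500 bp and 95.2% with 4000 bp. With at least 50% of a site required to be covered, 0% carried crotonate H3K27me3. With only the stronger 50% of the crotonate H3K4me3 list, 92.6% of sites kept a peak, 87.6% reached 3000 bp and 7.98% counted as at least 1.5-fold narrower; the smaller list removes the peaks of weak summit. A gene start, or an annotated end for genes without a listed start, lay at 94.5% of sites when counted within 1 kb. Cutting the lists of each mark to equal length removes only weak peaks of the longer list, so its unchanged values say nothing of depth. Pileup is not scaled between libraries, and without replicates the spread between cultures is unknown.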
